A study of Mus musculus with 6 samples.

Results

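The 40 genes described here encode the contractile apparatus of skeletal muscle and the proteins that supply it with calcium and energy. They were chosen by symbol from the platform annotation of an Illumina bead array, and each gene is represented by its probe with the highest mean over 6 arrays. Of these 40 genes, 37 had a probe, out of 19057 genes with a probe in all; Myh2, Smpx and Cacna1s were not analysed here. The arrays measured subcutaneous adipose tissue of male FVB mice at 12 weeks, 3 of them wild type and 3 transgenic for mitoNEET, the iron-sulfur protein that Cisd1 encodes and that sits in the outer membrane of mitochondria. The descriptions of all 6 samples carry the prefix aP2, a name of the Fabp4 promoter, which is active in adipocytes; the labels do not otherwise say what drives the transgene. Whether the arrays stand for separate animals is not stated in the labels either, so p-values measure only the spread between these samples, which may be technical.

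In a muscle fibre, myosin heads of the thick filament pull on actin of the thin filament when calcium binds troponin, and the sarcoplasmic reticulum releases calcium and pumps it back. Fast and slow fibres build this machinery from different isoforms of myosin, troponin and the calcium pump, and fast fibres of rodents also hold the calcium buffer parvalbumin. These proteins mainly mark skeletal muscle, although some, such as Tpm2, are also made by other cells.

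Wild type array 2 stood apart from the other 5 arrays in these genes. It was the highest array for 31 of the 37 measured genes, whereas it was the highest for 18.9% of all 19057 genes. For 22 of the 37 it read at least 2-fold above the highest other array, a gap found for 0.194% of all genes (37 of 19057), so that 22 of those 37 genes were members. The other 5 arrays had such a gap for 0, 1, 2, 0 and 0 genes of the 19057, in the order wild type 1, wild type 3 and transgenic 1, 2 and 3, and none of these genes was a member. Values are the deposited quantile-normalized intensities, in which a background level of about 47.9 remains; an intensity over 55.8 was counted as above background. Folds of dim probes are understated by this background, and a level is compared only between arrays for the same probe.

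The 300-base windows around the transcription starts of 3 members that were high on wild type 2 are shown, since the members were high together on that array. They run from upstream of the start to shortly after it and come from RefSeq for the GRCm38.p6 build. Acta1 lies at chr8:123894726-123895025 on the minus strand, Ckm at chr7:19410844-19411143 on the plus strand and Pvalb at chr15:78206351-78206650 on the minus strand. Capitals mark, in Acta1, a CAGCTG E-box, a CArG box (the binding motif of serum response factor) and a TATAAA motif, in Ckm a CAGCTG E-box, and in Pvalb a MEF2 box.
Acta1: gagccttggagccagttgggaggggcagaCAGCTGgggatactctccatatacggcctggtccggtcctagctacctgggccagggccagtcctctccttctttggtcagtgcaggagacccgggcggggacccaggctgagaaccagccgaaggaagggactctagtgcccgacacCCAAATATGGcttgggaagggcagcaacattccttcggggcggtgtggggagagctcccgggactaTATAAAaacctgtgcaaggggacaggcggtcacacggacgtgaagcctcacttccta
Ckm: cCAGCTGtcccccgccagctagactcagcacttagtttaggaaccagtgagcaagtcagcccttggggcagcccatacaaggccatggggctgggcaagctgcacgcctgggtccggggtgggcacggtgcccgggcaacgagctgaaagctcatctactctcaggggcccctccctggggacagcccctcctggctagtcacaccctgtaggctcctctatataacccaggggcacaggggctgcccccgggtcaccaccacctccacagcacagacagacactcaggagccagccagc
Pvalb: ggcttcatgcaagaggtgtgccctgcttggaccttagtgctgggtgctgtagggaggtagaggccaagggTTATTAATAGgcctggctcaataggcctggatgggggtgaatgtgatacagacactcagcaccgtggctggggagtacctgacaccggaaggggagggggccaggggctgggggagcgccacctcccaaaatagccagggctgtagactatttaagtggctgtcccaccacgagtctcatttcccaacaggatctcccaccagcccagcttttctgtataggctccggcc
The E-box CAGCTG, a form bound by myogenic factors of the MyoD family, was found in 20 of the 37 windows that 31 of the members have in this table (54.1%), and in 16.3% of all 32851 windows of the same length. The looser form CANNTG, which contains CAGCTG, was in 86.5% of the members' windows and 72.3% of all. A CArG box was in 8.11% against 1.63%, a MEF2 box in 16.2% against 3.19%, and TATAAA in 18.9% against 13.6%. Both strands were searched. These are matches of letters and not measured sites, and some members have several starts and so several windows.

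Thick filament genes were led by Mylpf (Entrez Gene 17907), the regulatory light chain of fast myosin. Mylpf read 143, 2518 and 62.1 on wild type arrays 1, 2 and 3 and 132, 139 and 61.0 on transgenic arrays 1, 2 and 3. Wild type 2 was thus 19.1-fold above the median of the other 5 arrays, while wild type 3 and transgenic 3 were only just above the threshold. Myl1, the alkali light chain of fast fibres, read 3257, 8481 and 2677 in wild type and 3849, 3266 and 3087 in transgenic tissue. Its chosen probe was bright on every array and wild type 2 exceeded the median of the others only 2.60-fold. A second Myl1 probe read 96.7, 1459 and 57.8 in wild type and 101, 98.3 and 52.7 in transgenic tissue, the pattern of Mylpf, so the Myl1 probes disagree on the level outside wild type 2.

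The regulatory light chain of slow and ventricular muscle, Myl2, read 46.6, 233 and 44.6 in wild type and 43.6, 47.6 and 50.2 in transgenic tissue. It was above background on wild type 2 alone. Myl3, the alkali light chain of slow fibres, read 139, 249 and 100.3 in wild type and 110.1, 85.3 and 94.2 in transgenic tissue. Wild type 2 was again the highest, although all 6 arrays were above background. The myosin heavy chain probes were dim. Myh4, the fastest heavy chain, read 96.0 on wild type 2 and at most 56.2 elsewhere, and Myh1, another fast heavy chain, read 79.1 there and at most 50.8 elsewhere. The slow heavy chain Myh7 read 49.2 on wild type 2, below its own 63.1 on wild type 1. The myosin-binding proteins Mybpc1 (slow) and Mybpc2 (fast) reached 96.1 and 89.2 on wild type 2 and were below the threshold on the other arrays.

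Of the 9 thin filament genes measured, 7 were highest on wild type 2. Acta1 (Entrez Gene 11459), skeletal alpha-actin, read 365, 4713 and 61.3 in wild type and 328, 389 and 158 in transgenic tissue. Tnnc2 (Entrez Gene 21925), the calcium-binding troponin C of fast fibres, read 170.2, 3414 and 68.4 in wild type and 202, 214 and 69.8 in transgenic tissue. Tnni2, the inhibitory troponin of fast fibres, read 255, 2450.2 and 109 in wild type and 206, 209 and 73.4 in transgenic tissue. In all 3 genes wild type 2 exceeded every other array by at least 9.60-fold, and wild type 3 and transgenic 3 were the lowest pair. Tnnt3, the tropomyosin-binding troponin of fast fibres, read 77.1, 649 and 54.3 in wild type and 74.5, 82.9 and 50.9 in transgenic tissue, again with wild type 3 and transgenic 3 lowest.

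The slow troponins had smaller gaps. Tnnc1, the slow and cardiac troponin C, read 75.3, 205 and 68.2 in wild type and 65.0, 74.5 and 58.7 in transgenic tissue. Tnnt1, the slow troponin T, read 65.3, 199 and 81.7 in wild type and 90.0, 67.2 and 65.7 in transgenic tissue. Both were highest on wild type 2, but the order of the other 5 arrays was not that of the fast troponins. With an SD over those 5 arrays of 6.91 (Tnnc1) and 11.2 (Tnnt1), a small muscle signal need not show in them. Tnni1, the slow inhibitory troponin, reached only 57.3 on wild type 2. Nebulin (Neb), the ruler of thin filament length, was below the threshold on every array. For beta-tropomyosin, Tpm2, the chosen probe read 183, 210.1 and 164 in wild type and 215, 203 and 197 in transgenic tissue, with no array apart. Another Tpm2 probe read 82.9, 808 and 45.0 in wild type and 108, 92.8 and 42.8 in transgenic tissue, so the choice of probe decides whether Tpm2 follows the other members. Tpm2 is also made by smooth muscle and fibroblasts.

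Among the Z disc and scaffold genes, 6 of the 7 measured were highest on wild type 2. Tcap, which caps titin at the Z disc, read 74.0, 678 and 50.5 in wild type and 101, 93.1 and 49.1 in transgenic tissue. Actn3, the alpha-actinin of fast fibres, read 59.6, 470.4 and 44.7 in wild type and 60.8, 70.4 and 60.3 in transgenic tissue. Wild type 2 was 9.16-fold and 7.80-fold above the median of the others in these genes. Ttn, the giant elastic protein titin, read 69.2, 355 and 57.0 in wild type and 65.0, 76.5 and 56.7 in transgenic tissue. Actn2, the alpha-actinin of all fibres, read 93.7, 328 and 92.4 in wild type and 94.3, 71.8 and 63.2 in transgenic tissue. Myoz1, a calsarcin of fast fibres that binds calcineurin, read 56.2, 148 and 51.6 in wild type and 57.8, 61.1 and 49.0 in transgenic tissue. Each of the 3 was at least 2.41-fold above its highest other array. The Z disc protein myotilin (Myot) read 104 on wild type 2 and was below the threshold elsewhere, and the chosen Xirp2 probe was below it on every array. Another Xirp2 probe read 69.8 on wild type 2 and at most 49.8 elsewhere, and the remaining probe was below the threshold throughout.

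Calcium handling genes held the largest fold of wild type 2 over the median of the other arrays. Pvalb (Entrez Gene 19293), the calcium buffer parvalbumin, read 202, 4209.9 and 52.8 in wild type and 205, 313 and 52.5 in transgenic tissue. Atp2a1 (Entrez Gene 11937), the calcium pump SERCA1 of fast fibres, read 177, 3175 and 59.6 in wild type and 187, 238 and 51.6 in transgenic tissue. Wild type 2 was 20.8-fold and 18.0-fold above the median of the other arrays, and both genes were below the threshold on transgenic 3. Ryr1, the calcium release channel, read 74.1, 149.9 and 63.1 in wild type and 73.1, 71.0 and 59.9 in transgenic tissue, and calsequestrin 1 (Casq1), the calcium store, read 94.7 on wild type 2 alone above the threshold. Triadin (Trdn) and the pump inhibitor sarcolipin (Sln) were below the threshold on all 6 arrays.

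The energy supply genes were all highest on wild type 2. Ckm (Entrez Gene 12715), the muscle creatine kinase that regenerates ATP, read 67.9, 683 and 45.5 in wild type and 65.0, 73.7 and 41.8 in transgenic tissue. Mb, the oxygen-binding myoglobin, read 66.3, 444 and 64.1 in wild type and 72.1, 73.2 and 58.9 in transgenic tissue. Pgam2, the muscle phosphoglycerate mutase of glycolysis, read 71.7, 405 and 54.3 in wild type and 74.8, 75.1 and 51.9 in transgenic tissue. On the arrays other than wild type 2 these 3 genes stayed close to the threshold, Mb always above it. Eno3, the muscle enolase, read 282, 828 and 213 in wild type and 184, 215 and 199 in transgenic tissue, well above background on every array. Ckmt2, the mitochondrial creatine kinase of muscle, read 286 on wild type 2 and at most 54.2 elsewhere, and Pygm, muscle glycogen phosphorylase, read 84.9 and at most 53.1.

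**Figure D1:**
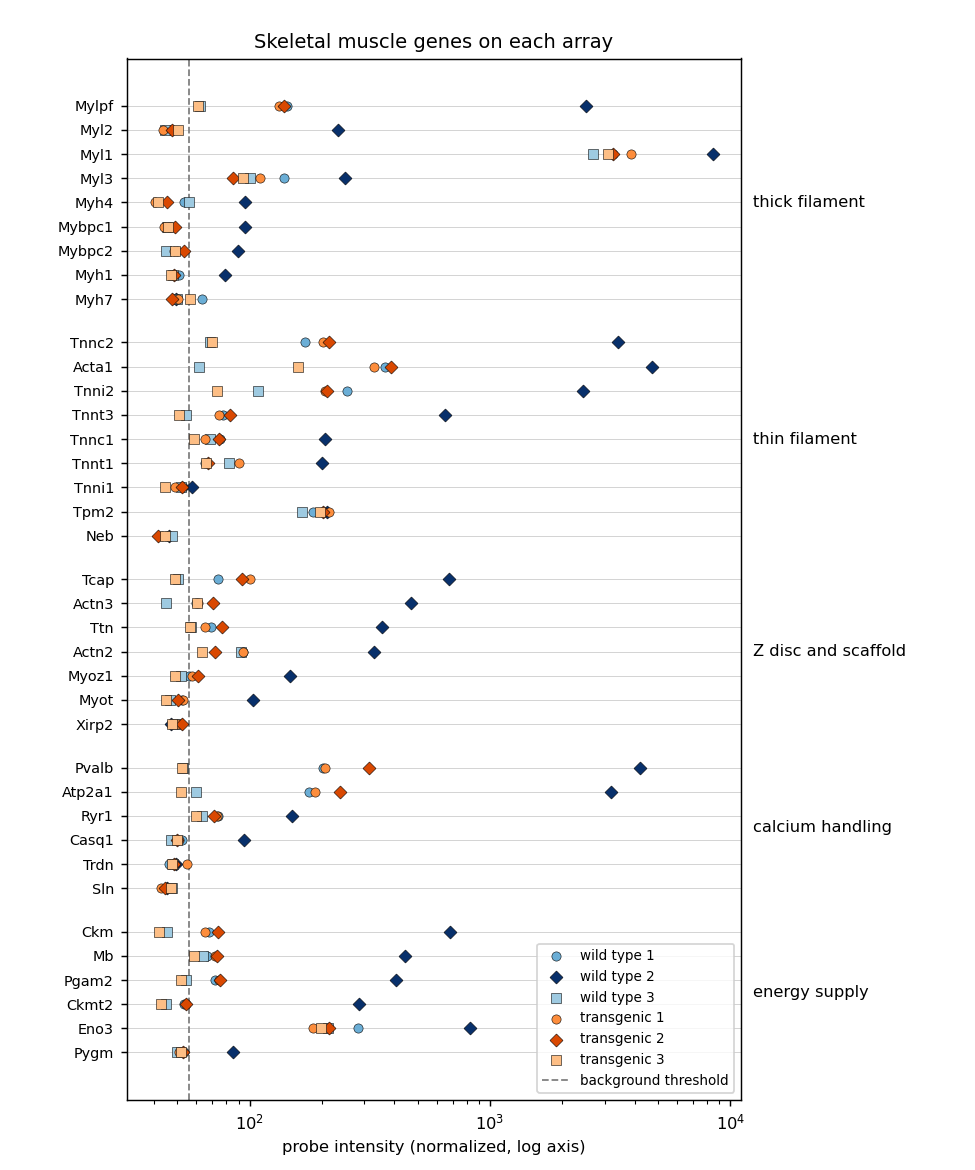
Intensity (log axis) of the chosen probe of each of the 37 measured genes on the 6 arrays, grouped by role, with the background threshold of 55.8 as a dashed line. Each point is an array; the diamonds of wild type 2 lie to the right of all other points for 31 genes.

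The number of members above the background threshold was 32 of 37 on wild type 2, 23 on wild type 1, 22 on transgenic 1, 22 on transgenic 2, 16 on wild type 3 and 16 on transgenic 3. The other 5 arrays were therefore not alike. For the 14 members whose intensity spanned at least 300 units, each array was placed between the lowest array (0%) and wild type 2 (100%). The median position was 4.04% for wild type 1, 3.97% for transgenic 1 and 5.83% for transgenic 2, against 0.239% for wild type 3 and 0% for transgenic 3. Wild type 1 and transgenic 1 lay above both wild type 3 and transgenic 3 in 13 of the 14 genes, and transgenic 2 in all 14. The lowest array was transgenic 3 in 9 genes, wild type 3 in 4 and transgenic 1 in 1. So a low muscle signal was present on arrays of both genotypes, and both genotypes also had an array at or near the lowest position. That position is the lowest array of each gene and need not be background. Acta1 read 158 on transgenic 3 and Tnni2 109 on wild type 3, while Pvalb was below the threshold on both arrays. Since these are bulk tissues, more muscle cells in a piece of tissue and more of these transcripts per cell cannot be told apart. Myl1 and Eno3 lay furthest from the other members, at 20.2% on transgenic 1 and 15.1% on wild type 1 respectively.

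**Figure D2:**
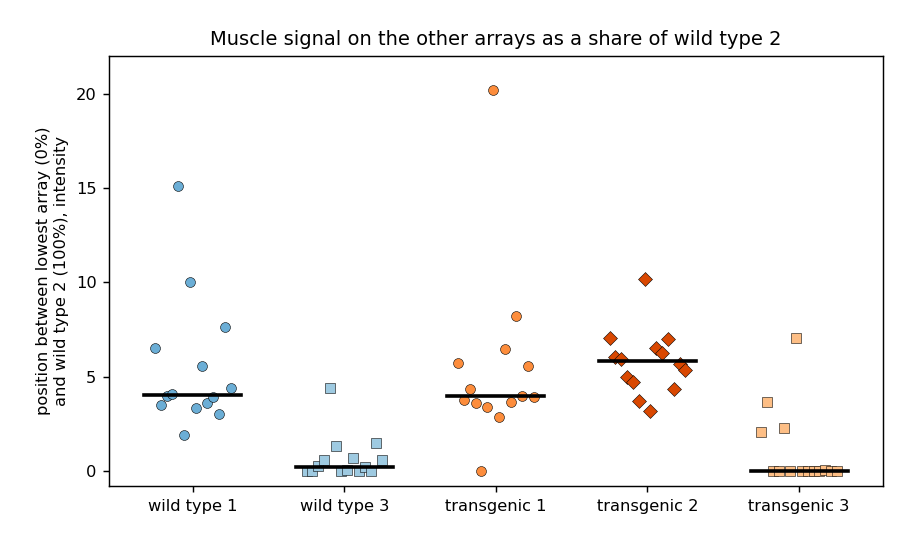
Position of the 5 other arrays between the lowest array (0%) and wild type 2 (100%) on the intensity scale for 14 members, each point a gene and each bar the median. Wild type 1, transgenic 1 and transgenic 2 have medians of 4.04%, 3.97% and 5.83%, and wild type 3 and transgenic 3 lie at 0.239% and 0%.

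Fast fibre isoforms had, in the median, larger folds on wild type 2 than slow isoforms. All 13 measured fast isoforms were highest on that array, 9 of them at least 2-fold above every other array, and all 13 were above background there. Of the 7 slow isoforms 6 were highest on it, 3 with such a gap (Myl2, Tnnc1 and Tnnt1), and 6 were above background. The median fold of wild type 2 over the median of the other 5 arrays was 7.80 for the fast isoforms (1.65 to 20.8) and 2.48 for the slow isoforms (0.98 to 5.0). The ranges overlap, since the fast isoforms Myoz1, Myl1, Myh4, Casq1, Mybpc2 and Myh1, at 2.63-fold down to 1.65-fold, lay among the slow isoforms. Within the troponins the fast subunits stood at 20.1-fold (Tnnc2), 11.9-fold (Tnni2) and 8.71-fold (Tnnt3), and their slow counterparts at 3.01-fold (Tnnc1), 1.11-fold (Tnni1) and 2.97-fold (Tnnt1). The fast subunit had the larger fold in all 3 troponin pairs. Probes differ in brightness and each carries its own background, so these folds do not give the share of fast and slow fibres, and no test was run on them.

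Of 5 slow isoforms outside the set, 2 were highest on wild type 2 and 0 had a 2-fold gap. Tpm3, which slow fibres and many other cells make, read 1605 on wild type 2 and between 899 and 1361 elsewhere, and Myoz2, the calsarcin of slow fibres, read 70.1 there and at most 49.7 elsewhere. Slow calsequestrin (Casq2) was below the threshold on all arrays. Of the 7 slow members 4 were above the threshold on wild type 1, 3 each on wild type 3, transgenic 1 and transgenic 2, and 4 on transgenic 3. Of the 13 fast isoforms 9, 6, 9, 9 and 5 were above it on those arrays, an order the slow members did not follow. At the median positions given above, slow members would gain little on wild type 1, transgenic 1 and transgenic 2. Tnnt1 would gain 5.32 to 7.8 units and Myl3 6.51 to 9.54, within their SD over the 5 arrays (11.2 and 20.7). Several slow members could thus hardly show that order. Myl2 (7.53 to 11, SD 2.57) and Mybpc1 (2.07 to 3.04, SD 1.78) would gain more than their SD. Above its lowest array Myl2 read 2.95, 0 and 3.96 units on wild type 1, transgenic 1 and transgenic 2, less than these gains on each. Mybpc1 read 2.33, 0 and 4.84, less than its gain on transgenic 1 only. Why Myl2 fell short was not tested.

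**Figure D3:**
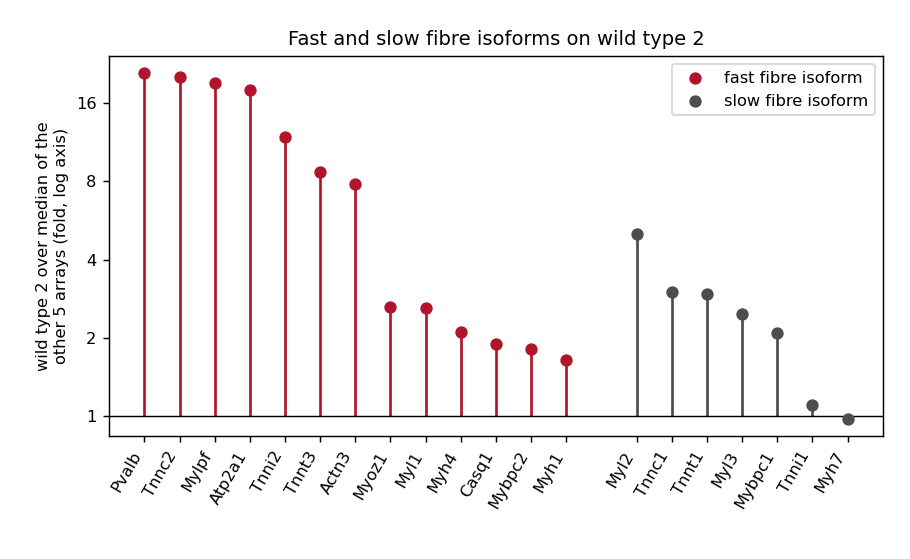
Fold of wild type 2 over the median of the other 5 arrays (log axis) for the 13 fast and 7 slow fibre isoforms measured, each point a gene. Fast isoforms run from 1.65 to 20.8 and slow isoforms from 0.98 to 5.0.

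Markers of other tissues were examined on the same arrays. Of 40 measured skeletal muscle genes outside the set, 20 were highest on wild type 2 and 8 had a 2-fold gap, led by Cox6a2, the muscle form of a cytochrome oxidase subunit, and Rpl3l, the muscle form of a ribosomal protein. Cox6a2 read 85.2, 589.8 and 65.5 in wild type and 63.8, 75.5 and 54.9 in transgenic tissue. Rpl3l read 57.7, 331 and 52.1 in wild type and 55.2, 63.6 and 50.6 in transgenic tissue. Ampd1, Csrp3, Myom2, Klhl41, Hrc and Ankrd23 were the other 6 with that gap. Of the 37 genes with it over the whole array, 22 were members and 8 were in this list. The remaining 7 were Cmya5, Eef1a2, Mylk2, Ppp1r27, Pdlim3, Mlf1 and Trim72, at 3.05-fold to 2.01-fold above the highest other array. Mylk2 is the myosin light chain kinase of skeletal muscle, Eef1a2 the elongation factor isoform of muscle and neurons, and Trim72 a membrane repair protein of muscle.

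Heart, muscle precursor and neighbouring tissue markers did not show this gap. None of 9 cardiac markers had a 2-fold gap, and Myh6, Nppa, Nppb and Ryr2 were below the threshold on wild type 2. Myl4, the only cardiac marker above the threshold there, read 612 on wild type 2 and 457 to 559 elsewhere. Of 8 measured markers of developing muscle and satellite cells, 2 were above the threshold on wild type 2, and Pax7 and Myod1 were not. The 2 were Myog, at 60.8 there and 55.1 to 61.6 elsewhere, and Myf6, at 61.0 there and at most 54.5 elsewhere. None of the smooth muscle, nerve, tendon and brown adipocyte markers had such a gap on wild type 2. It was the highest array for 3 of the 9 cardiac, 1 of 8 smooth muscle, 1 of 4 nerve, 3 of 6 tendon and 2 of 8 brown adipocyte markers. Adipocyte markers were highest on wild type 2 in 0 of 7 genes, and their summed intensity was 44305 there, 46867 on wild type 1, 46505 on wild type 3 and 54180 to 58008 in transgenic tissue. Lymphocyte markers, a list added after the values had been seen, were highest on wild type 2 in 12 of 13 genes. Their summed intensity was 17632 there, 9636 and 11837 on the other wild type arrays and 1294 to 4750.4 on the transgenic arrays. Lymphocyte genes thus separated the genotypes on all 6 arrays, which the muscle genes did not, and the part of either in the other was not tested.

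The comparison of genotypes asks which genes differ between transgenic and wild type adipose tissue. It was run with limma on log2 intensity over 14878 features, and 22 of the 37 measured members passed the filter of a reading above the threshold on at least 3 arrays. A member that is high on wild type 2 alone did not pass, so the 22 are not the full set. None of the 22 passed an adjusted p of 0.05, whereas 13.5% of all features did (2002; 5.14% higher and 8.31% lower in transgenic tissue). With each array centred on its median, 2197 features passed, of which 1111 were higher, against 765 of 2002 without centring. At an unadjusted p under 0.05, 1 of the 22 members passed (Myl3) and 31.5% of all features. The groups did not overlap in 0 of the 22 members and in 36.0% of all features.

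The members' differences leaned to lower levels in transgenic tissue, although none passed. Their median was -0.82 on the log2 scale, and 21 of 22 were below 0, against 45.0% of all features, whose median was 0.03. The members share the arrays, so the 21 genes are not 21 separate observations. Tnni2 averaged 938 ± 1312 (SD, n = 3) in wild type against 163 ± 77.4 (SD, n = 3) for the transgenic arrays, and differed by -1.48 (SE 0.98). Mylpf differed by -1.44 (SE 1.14), Atp2a1 by -1.29 (SE 1.27) and Pvalb by -1.24 (SE 1.39), with adjusted p from limma of 0.345, 0.432, 0.532 and 0.587 for these 4 genes. The wild type SD exceeded the wild type mean in each of them. The smallest p belonged to Myl3, which differed by -0.66 (SE 0.28, limma adjusted p = 0.152).

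Without wild type 2 the direction of most members turned. The median of the 22 became 0.07, and 6 of 22 were below 0, against 45.4% of 14436 features. Mylpf moved from -1.44 to 0.14, Tnnc2 from -1.24 to 0.42, Atp2a1 from -1.29 to 0.36, Pvalb from -1.24 to 0.54 and Acta1 from -0.79 to 0.86. Tnni2 (-0.18), Eno3 (-0.30), Actn2 (-0.30) and Myl3 (-0.30) stayed below 0. Again 0 of 22 members passed the adjusted threshold, against 2.12% of features (306), and 1 of 22, Tpm2, had an unadjusted p under 0.05, against 21.2%. Leaving out wild type 3 in place of wild type 2 took Myl3 past the threshold (log2 difference -0.96, SE 0.23, limma adjusted p = 0.0374) and 8 of 22 members to an unadjusted p under 0.05, where 14.4% and 31.9% of all features passed these thresholds. The remaining wild type arrays then were 1 and 2. Without wild type 1, which leaves wild type 2 as much weight, Myl3 did not pass (log2 difference -0.72, limma adjusted p = 0.188). Why these fits differ was not tested.

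**Figure D4:**
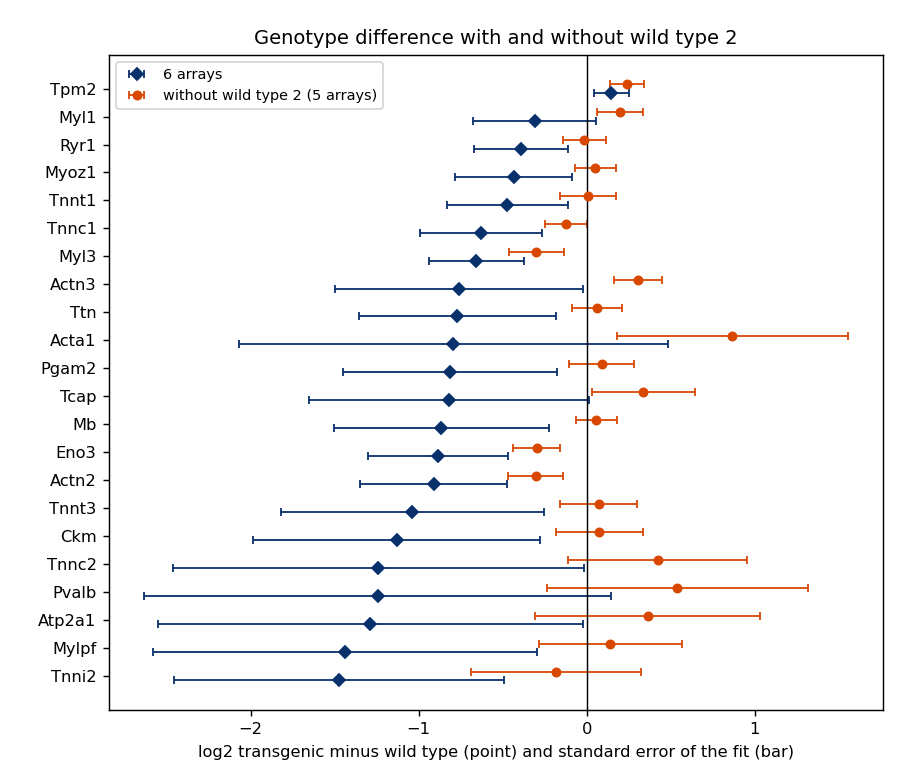
Log2 difference, transgenic minus wild type, of the 22 members that passed the filter, with the standard error of the limma fit as bars, from all 6 arrays (diamonds) and without wild type 2 (circles). The median moves from -0.82 to 0.07 and 15 genes change sign.

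The size of this influence was measured on the same features with and without wild type 2. Leaving the array out raised the members' log2 difference by a median of 0.91, from 0.09 for Tpm2 to 1.78 for Pvalb, and 10 of 22 members moved by more than 1. Among the other 14856 features the median shift was -0.0039, and 10 moved by more than 0.5 and 0 by more than 1. The named genes among these 10 were the muscle genes Cox6a2, Rpl3l, Cmya5, Ampd1 and Eef1a2, together with Hamp2, a gene of the hepcidin family, and Dlk1, a preadipocyte factor. Hamp2, Dlk1 and the bound of 0.5 were picked after the values were seen. The SD of the shift over all features, members included, was 0.0837 when wild type 2 was left out, 0.0789 for wild type 1 and 0.0809 for wild type 3. By this SD the 3 wild type arrays moved the log2 differences to a similar extent, which does not cover the calls. A shift over 1 was found for 10 features without wild type 2, 1 without wild type 1 and 7 without wild type 3. The members also moved with the other wild type arrays, in the opposite direction. Their median shift was -0.343 without wild type 1 and -0.518 without wild type 3, where 5 members moved by more than 1.

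The number of calls changed more than the differences did. On the same features, 320 passed without wild type 2, all of them among the 2002. Of the 2002, 0 changed sign, whichever array was left out. They were chosen with all arrays in the fit, so a change of sign was unlikely. Of all 14856 features other than members, 1067 changed sign without wild type 2. Leaving out transgenic 1, transgenic 2 or transgenic 3 lowered the number to 522, 0 or 1214, while 1981 and 2150 passed without wild type 1 and wild type 3. The cause of these changes was not tested.

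**Figure D5:**
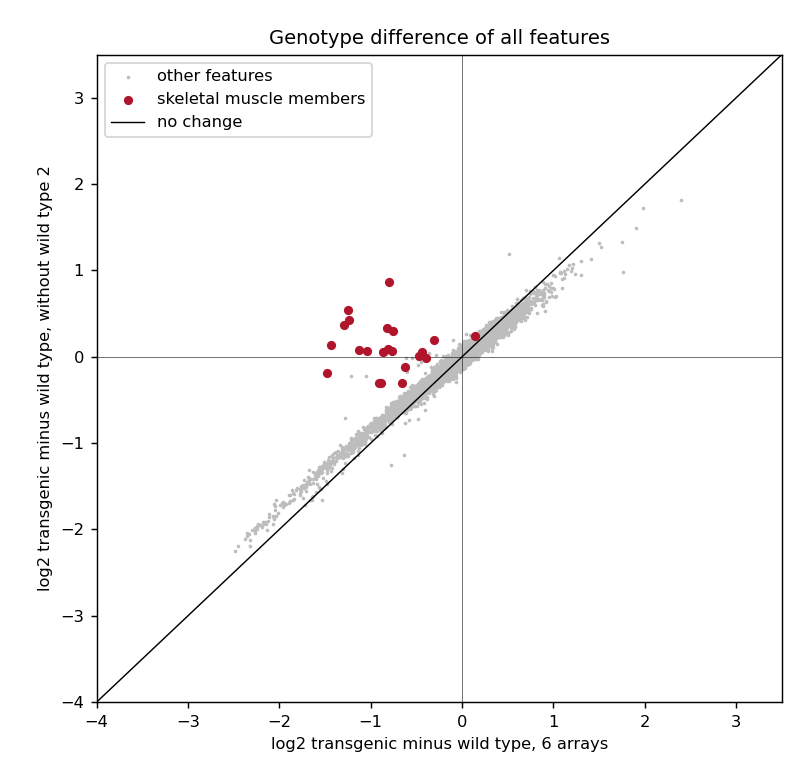
Log2 difference, transgenic minus wild type, of each of the 14878 features from 6 arrays (horizontal axis) and without wild type 2 (vertical axis), with the line of no change. The 22 members (large points) lie above the line by a median of 0.91, and the other features (small points) lie along it with a median shift of -0.0039.

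Genes that muscle and fat both express were followed separately, since both tissues add to their signal. Of 24 such genes measured, 4 were highest on wild type 2, and 7 of the 22 that passed the filter differed between genotypes, with 3 higher and 4 lower in transgenic tissue, beside 13.5% of all features. Fabp3, the fatty acid-binding protein of heart and muscle that brown fat also makes, read 4412, 4484 and 1916 in wild type and 733, 814 and 966 in transgenic tissue. Its value on wild type 2 was close to that on wild type 1, and the log2 difference was -2.01 (SE 0.30, limma adjusted p = 0.0145) with all arrays and -1.81 (SE 0.31, limma adjusted p = 0.042) without wild type 2. Cox7a1, a cytochrome oxidase subunit of muscle and brown fat, read 6676, 7952 and 6445 in wild type and 3763, 4971 and 3066 in transgenic tissue. Every wild type array was above every transgenic array in both genes.

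The other calls in this list moved little in size. Cox7a1 went from -0.86 (SE 0.17, limma adjusted p = 0.0204) to -0.77 (adjusted p = 0.0745) without wild type 2. Cpt1b, which carries fatty acids into mitochondria, went from -0.57 to -0.56 (adjusted p = 0.0559), and Pdk4, which restrains pyruvate oxidation, had -0.64 in both fits (adjusted p = 0.124 without wild type 2). The insulin-responsive glucose transporter Slc2a4 went from 0.55 to 0.47, the glycogen synthase Gys1 from 0.50 to 0.42 and the fatty acid oxidation enzyme Hadh from 0.50 to 0.40. Fabp3 alone of the 7 stayed past the threshold, and Pdk4, Gys1 and Hadh each also lost their calls when any of 4 other arrays was left out. Without transgenic 2, none of the 7 passed. Pfkm, the muscle phosphofructokinase, was 1283 on wild type 2 and 791 to 933 elsewhere, and its difference, which did not pass, went from -0.29 to -0.10. Ucp1, the uncoupling protein of brown adipocytes, read 5878, 6905 and 6717 in wild type and 2997, 2182 and 2914 in transgenic tissue, and its difference of -1.28 became -1.23 without wild type 2 (limma adjusted p = 0.0402). The Ucp1 call was lost without transgenic 2, at a difference of -1.13 (limma adjusted p = 0.052).

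In the further list of 40 skeletal muscle genes, 2 of the 17 that passed the filter differed between genotypes, a share near the 13.5% of all features. Myom3, a protein of the M band, read 159.5, 149 and 215 in wild type and 425, 384 and 289 in transgenic tissue. It was lowest on wild type 2 and rose in transgenic tissue by 1.07 on the log2 scale (SE 0.18, limma adjusted p = 0.0155), opposite to the members, and by 0.96 without that array (adjusted p = 0.0509), and its call was lost without transgenic 2 as well. Desmin (Des), an intermediate filament of skeletal and smooth muscle, read 414, 556 and 312 in wild type and 248, 246 and 259 in transgenic tissue. It fell by 0.73 on the log2 scale (SE 0.18, limma adjusted p = 0.0366), and the difference was -0.52 (adjusted p = 0.081) without wild type 2. The Des call was also lost when wild type 1 or any of the transgenic arrays was left out. Of the 10 genes outside the lists with the largest gap on wild type 2, 7 passed the filter, and of these Nup210, a nuclear pore protein, alone differed between genotypes, by -2.03 (limma adjusted p = 0.0189). It read 375, 932 and 488 in wild type and 78.4, 171 and 186 in transgenic tissue, with every wild type array above every transgenic array, and its call was lost without wild type 2, at a difference of -1.66, and without transgenic 2.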

How the data were processed

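Total RNA of subcutaneous adipose tissue was labelled with biotin and hybridised, per the labels' protocols. The deposited values are probe intensities, made by software that the sources used here do not give. Sorted intensities of the 6 arrays differed by at most 0.157, so the deposited intensity values are quantile-normalized. The smallest was 32.4. Whether background had been subtracted at an earlier step cannot be told from these values. A table of scanner signals was not used, because its 24 columns of per-sample values are named by chip position, which matches no label; the planned neqc normalization and detection filter were replaced by log2 of the deposited intensity and a threshold.

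The threshold of 55.8 lies above the mode of all values, 47.9. Probes over it on 3 or more of the 6 arrays were kept (21900 of 45281 probes, 48.4%). The platform annotation, which can be old, names 1 gene for 34885 probes, more than 1 for 18 and lists none for 10378. Each gene took its kept probe of highest mean, which gave 14878 features, 11419 of them named. Genotypes were compared on all of them by the moderated test of limma (version 3.58.1, R version 4.3.3) with Benjamini-Hochberg adjustment at 0.05; the fit was tested on simulated data. Precision is limited by the number of arrays.

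The members and lists were chosen with earlier results of these data known. Named were all members, with full values for fast and slow isoforms that passed the filter and the 3 members of each role with the largest gap; up to 4 genes of each context list (other skeletal muscle, slow fibre, precursor, cardiac, smooth muscle, nerve, tendon, adipocyte, brown adipocyte, genes of both muscle and fat); genes of that last list that were called; and the 10 other genes with the largest gap on wild type 2. The lymphocyte list was added after the data were seen. Alternatives were an offset of 16, background subtraction, other filters, all probes, centring, array weights, a replicate block, the muscle score as a covariate and each array left out.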

Additional observations from a re-analysis of the deposited data

How the results depend on the processing

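The number of features called was 94 after subtraction of the background level and 364 with the members' mean score as a covariate, against 2002, and the genes of both muscle and fat called were 0 and 1, against 7. Under the other 7 alternatives these counts stayed within 1.5 times, and 0 members were called. Leaving out each array in turn gave 0 to 2083 features, with 306 without wild type 2, 500 without transgenic 1, 0 without transgenic 2 (3570 at an unadjusted p under 0.05) and 1198 without transgenic 3. It gave 0 to 1 members, 0 to 5 genes of both muscle and fat, and a members' median of -1.35 to 0.0724. The members' median lay between -1.28 and -0.64 under the 8 alternatives that kept all arrays. Signs reversed only without wild type 2. The leave-one-out ranges were -2.27 to 0.86 for Acta1, -2.53 to 0.14 for Mylpf, -2.40 to 0.42 for Tnnc2, -2.62 to 0.54 for Pvalb, -2.51 to 0.36 for Atp2a1, -1.88 to 0.0744 for Ckm, -1.54 to 0.34 for Tcap, -1.39 to 0.30 for Actn3 and -1.72 to 0.0704 for Tnnt3. Ampd1, not called with all arrays, passed with a replicate block, with array weights and without wild type 1. The smaller fits hold fewer arrays; the cause of the other changes was not tested. Same-numbered arrays of the genotypes correlated at 0.41, 0.22 and -0.03 in their deviations from the group means. Differently numbered arrays correlated at -0.355 to 0.235. Whether same-numbered arrays were handled together was not tested. With the replicate block 2382 features and 0 members were called. Residual background limits what dim probes can show.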
